A study of Mus musculus with 12 samples.

Results

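Pou5f1, Fgf4 and Myc were followed on an H3K27me3 ChIP-chip array, on which 521 of the 48316 probes outside control spots lie within 10 kb of these 3 genes. Of 72 protein-coding genes with a tiled promoter, these 3, linked to pluripotency, were chosen with results of these same data known. The results were those of the difference of neural progenitor cells (NPCs) from mouse embryonic stem cells (mESCs). That difference is therefore described here and not tested. Probes were taken when they lay inside the gene or within 10 kb of it in the mm9 build, which gave 137 probes at Pou5f1, 242 at Fgf4 and 142 at Myc. The tiled regions end before the 10 kb limit at Pou5f1, which was covered from 8.03 kb before the gene to 0.72 kb past it, and at Myc, covered from 2.41 kb before to 4.02 kb past it. Fgf4 lies inside a longer tiled region that also holds Fgf3 and Fgf15.

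The cells were 46c mESCs, a line that carries a GFP reporter in the Sox1 gene, and NPCs derived from them in N2B27 medium, whose day of differentiation the labels do not give. The 5 mESC populations were transfected by lipofection with eGFP as the control or with a TALE DNA-binding protein fused to the activator Vp64 and directed to the Shh promoter (tShh-Vp64), to the Shh brain enhancers SBE6 (tSBE6-Vp64) or SBE2 (tSBE2-Vp64), or to both (tSBE(6+2)-Vp64). None of these constructs is directed to Pou5f1, Fgf4 or Myc. Native ChIP with 1 antibody to H3K27me3 followed MNase digestion of nuclei, and each of the 6 populations was hybridised, ChIP with input, on 2 arrays, R1 and R2. R1 and R2 were counted as 2 arrays of 1 sample, since the labels of 3 populations name both as the second biological replicate, and nothing states that R1 and R2 of a population came from separate cultures. NPCs and eGFP mESCs are thus 1 sample each, and p-values measure only the spread between the populations on the arrays, which may be technical. The labels give Cy3 to ChIP and Cy5 to input, and the heading of the deposited ratios also names Cy3 over Cy5. The values of these deposited ratios, however, followed log2 Cy5 over Cy3 (Pearson's r across probes 0.90 to 0.94). Values below are log2 Cy5 over Cy3, the likely direction, centred on the median of each array, and all signs turn if the dyes were as labelled.

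H3K27me3 is written by the polycomb repressive complex PRC2, and it lies over genes that are held silent, most often around promoters rich in CpG dinucleotides. Pou5f1 encodes Oct4, a POU transcription factor at the core of the pluripotency network, and Fgf4 encodes the growth factor by which mESCs signal to themselves as they prepare to differentiate. Oct4 and Sox2 bind next to each other in enhancers of both genes, one upstream of Pou5f1 and one in the last exon of Fgf4. Myc encodes a transcription factor of growth and proliferation that supports self-renewal of mESCs, and that dividing cells of many other types use as well.

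The sequences that the results below refer to are the proximal promoters of the genes with the gained mark and the paired Sox and Oct motifs in their enhancers. The promoters are the 250 bases before the RefSeq start (GRCm38.p6 table, found again in mm9 at the coordinates given, plus strand), for Pou5f1 the entry at the annotated gene start, 5′ to 3′, with CpG dinucleotides in capitals to show how differently the 2 starts are built.
Pou5f1, chr17:35642727-35642976: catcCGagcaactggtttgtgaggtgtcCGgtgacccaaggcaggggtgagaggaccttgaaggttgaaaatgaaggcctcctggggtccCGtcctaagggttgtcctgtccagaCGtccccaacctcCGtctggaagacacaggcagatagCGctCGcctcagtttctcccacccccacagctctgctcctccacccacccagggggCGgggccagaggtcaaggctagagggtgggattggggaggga
Fgf4, chr7:152047041-152047290: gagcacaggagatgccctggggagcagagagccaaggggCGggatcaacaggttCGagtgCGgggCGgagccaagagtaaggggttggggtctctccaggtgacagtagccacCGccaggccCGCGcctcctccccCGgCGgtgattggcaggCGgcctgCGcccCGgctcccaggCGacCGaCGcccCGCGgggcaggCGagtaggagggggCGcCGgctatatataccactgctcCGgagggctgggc
The Pou5f1 run holds 8 CpG dinucleotides and the Fgf4 run 21, against a median of 6 in the same 250 bases of 32851 RefSeq promoters, 57.0% and 83.7% of which hold fewer. The Sp1-type motif GGGCGG, searched on both strands, occurs 1 time in the Pou5f1 run and 2 times in the Fgf4 run, and in 32.7% of all those promoters. Neither whole promoter entry, which runs on past the start, holds the E-box CACGTG, found in 7.2% of all entries on either strand, or the Sox-type motif CTTTGTT, found in 5.9%. The octamer-type motifs ATGCAAA, in 4.6% of entries, and ATGCTAA, in 2.9%, were not in these windows either.

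The paired motif was searched in mm9 as CTTTGTT followed after 0 to 3 bases by ATGC, on both strands, in all 4.56 Mb of tiled sequence. It matched 18 times, 1 of them at Pou5f1 and 1 at Fgf4, and none within the span of Myc. Capitals mark the match, with 7 bases on each side, written 5′ to 3′ on the strand of the motif.
Pou5f1 upstream, chr17:35640998-35641008, minus strand: catgcacCTTTGTTATGCatctgcc
Fgf4 last exon, chr7:152050299-152050312, plus strand: gaaaactCTTTGTTTGGATGCtaatggg
The Pou5f1 match lies 1.98 kb before the start site and the Fgf4 match 3.01 kb after it. A match is a description of the letters and not of binding.

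H3K27me3 at the promoters of Pou5f1 and Fgf4 was near or below the array median in every mESC population and well above it in NPCs, whereas Myc showed little difference around its start. The promoter value is the mean over the probes within 2 kb of the annotated start site, 52 at Pou5f1, 55 at Fgf4 and 52 at Myc. At Pou5f1 (Ensembl ENSMUSG00000024406.9, chr17:35642982-35647721, plus strand) the log2 ratio on arrays R1 and R2 was -0.57 and -0.44 in eGFP mESCs, -0.49 and -0.55 with tShh-Vp64, -0.63 and -0.63 with tSBE6-Vp64, -0.47 and -0.50 with tSBE2-Vp64, -0.67 and -0.69 with tSBE(6+2)-Vp64, and 2.21 and 2.26 in NPCs. All 10 mESC arrays were low and both NPC arrays high, with no overlap. NPCs were above every mESC population at 46 of the 72 tiled promoters (63.9%), or at 8 (11.1%) if the dyes were as labelled. The mESC populations averaged -0.56 ± 0.09 (SD, n = 5), so that the NPC value, 2.24, was 2.80 higher on the log2 scale, or 6.96-fold. Bulk ChIP cannot tell a stronger mark in every cell from the mark in more of the cells.

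At Fgf4 (ENSMUSG00000050917.4, chr7:152047291-152051148, plus strand) the ratios were 0.10 and 0.10 in eGFP mESCs, -0.16 and -0.17 with tShh-Vp64, -0.24 and -0.21 with tSBE6-Vp64, 0.02 and 0.10 with tSBE2-Vp64, 0.10 and 0.06 with tSBE(6+2)-Vp64, and 2.34 and 2.29 in NPCs. The mESC arrays again lay together, near the array median, and both NPC arrays stood above them. The mESC mean was -0.03 ± 0.15 (SD, n = 5) and the NPC value 2.32, a log2 difference of 2.35 or 5.09-fold. The sign of the small mESC values depended on the normalization and on the window.

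**Figure D1:**
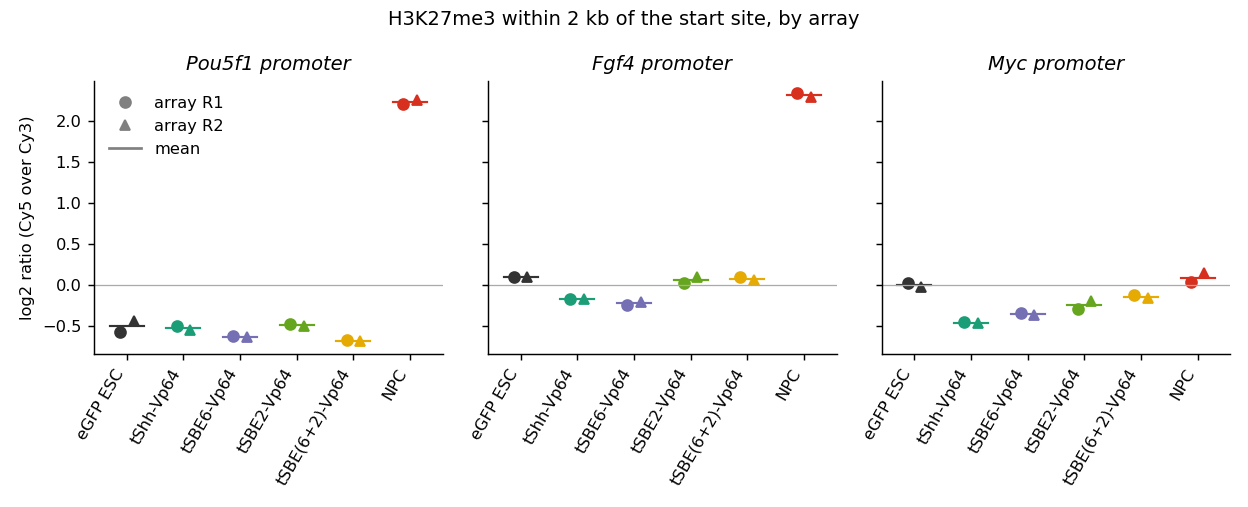
Log2 ratio (Cy5 over Cy3, centred on the array median) within 2 kb of the start sites of Pou5f1, Fgf4 and Myc, with circles for array R1, triangles for R2 and a line for their mean in each of the 6 populations. NPC arrays sit at 2.21 to 2.34 for Pou5f1 and Fgf4, away from all mESC arrays, and at 0.04 and 0.14 for Myc, close to eGFP mESCs.

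At Myc (ENSMUSG00000022346.8, chr15:61816946-61821929, plus strand) the ratios were 0.03 and -0.03 in eGFP mESCs, -0.46 and -0.47 with tShh-Vp64, -0.35 and -0.36 with tSBE6-Vp64, -0.29 and -0.20 with tSBE2-Vp64, -0.13 and -0.16 with tSBE(6+2)-Vp64, and 0.04 and 0.14 in NPCs. The NPC arrays were the highest, but only 0.04 on R1 against 0.03 on the nearest eGFP array, and this order was not stable. NPCs were below eGFP in the deposited ratios (-0.20 and -0.14), with 1 kb windows (0.09 and 0.14) and without dim and saturated probes (-0.01 and 0.04). The difference of NPCs from the mESC mean of -0.24 ± 0.18 (SD, n = 5) was 0.33 on the log2 scale, 1.26-fold, and it was 0.14 in the deposited ratios. No run of high H3K27me3 touched Myc in any of the 6 populations at the threshold used below.

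Arrays R1 and R2 differed by 0.00 to 0.12 at these promoters. NPCs shared a slide only with tSBE(6+2)-Vp64 mESCs, the other 4 populations being on a second slide, so the comparison within a slide rests on 1 population on each side. Within the slide, NPCs were 2.92 higher at Pou5f1, 2.24 at Fgf4 and 0.23 at Myc. The share of member probes well above background was 72.4% to 91.6% for Cy3 and 86.6% to 96.5% for Cy5 on the NPC slide, and 90.2% to 99.0% and 90.0% to 94.6% on the other. The NPC log2 ratios also had the widest spread over all probes, with an SD of 1.37 against 0.89 to 1.16 in the mESC populations. With each array rescaled to the mean of the arrays' median absolute deviations, the differences were 2.45 at Pou5f1, 1.96 at Fgf4 and 0.34 at Myc.

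The gain lay in the Cy5 channel. At the Pou5f1 promoter, the Cy5 signal as log2 over the array median was 3.19 and 3.18 on the NPC arrays and 0.34 ± 0.13 (SD, n = 5) in the mESC populations. The Cy3 signal was 1.21 and 1.15 in NPCs and 1.07 ± 0.04 in mESCs. Fgf4 gave 3.49 and 3.53 for Cy5 in NPCs against 1.29 ± 0.11 in mESCs, and 1.39 and 1.47 for Cy3 against 1.48 ± 0.05. The NPC arrays thus differed from mESCs by 2.84 and 2.23 in Cy5, and by 0.11 and -0.05 in Cy3. At Myc the difference was 0.27 in Cy5 and 0.01 in Cy3.

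**Figure D2:**
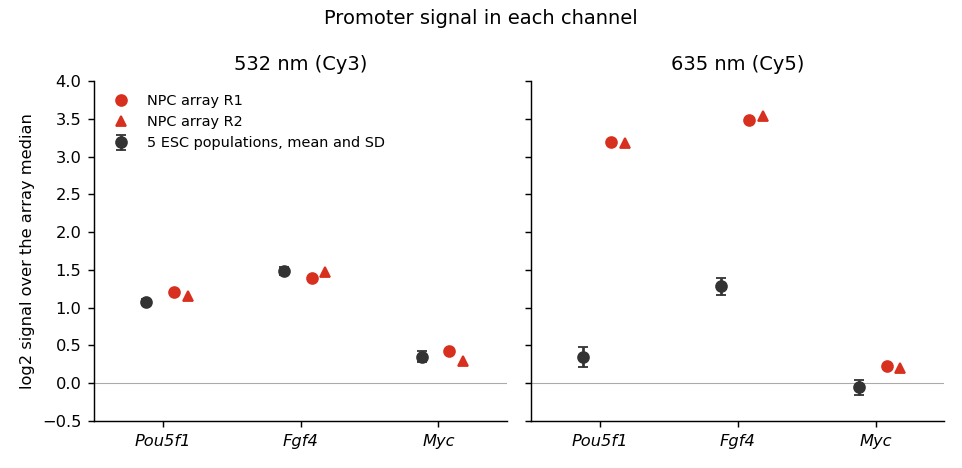
Signal at the 3 promoters in each channel, as log2 over the median of the array, with the mean and SD of the 5 mESC populations in black and the 2 NPC arrays in red. The NPC values stand apart in Cy5 for Pou5f1 (3.19 and 3.18) and Fgf4 (3.49 and 3.53), and lie close to the mESC values in Cy3.

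Along Pou5f1, the NPC ratio was highest inside the gene and not at its start. In 1 kb bins counted from the start site, the NPC ratio peaked at 3.47 between 1 and 2 kb (3.39 on R1 and 3.54 on R2, 14 probes), where the mESC mean was -0.89 and the 10 mESC arrays ranged from -1.12 to -0.53. This bin lies in the first intron of the full-length transcript, part of which is annotated as the first exon of a shorter one. The flanking bins had 1.96 at 0 to 1 kb and 2.01 at 2 to 3 kb, and the ratio fell to 0.53 at 3 to 4 kb and 0.09 at 4 to 5 kb, in the 3′ part of the gene. Upstream it was 1.79 in the last kb before the start, 1.63 in the next and 2.07 between 3 and 2 kb before it. Further upstream, from 8 to 3 kb before the start, the 5 bins had 0.36 to 0.60 in NPCs and -1.08 to -0.32 in mESCs. The NPC Cy5 signal over the array median was 3.51 both at 0 to 1 kb and at 1 to 2 kb, so the peak is of the ratio and not of Cy5. Cy3 was 1.78 and 0.28 in these bins in NPCs, and 1.52 and 0.32 in mESCs. Their probes averaged 58.8% and 49.9% GC, and the part of base composition in this shape was not tested. In all 13 bins with at least 3 probes on every array, both NPC arrays lay above all 10 mESC arrays. The share of such bins over the whole array was not counted, so nothing is read from the bin counts here or at the other genes.

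Around the paired Sox and Oct motif upstream of Pou5f1, printed above, the 11 probes within 500 bp had 2.09 and 1.89 on the NPC arrays and -0.71 to -0.37 on the mESC arrays. The NPC value was 2.56 above the mESC mean of -0.58 ± 0.07 (SD, n = 5). Part of this interval lies inside the promoter window of 2 kb, and the gene was chosen on this contrast. Its likeness to the promoter is therefore a description and no support.

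The probe with the highest NPC ratio outside exons lay in the same intron, 1.09 kb past the start, and is printed for its composition, since it holds no CpG dinucleotide.
Pou5f1 intron, chr17:35644042-35644101: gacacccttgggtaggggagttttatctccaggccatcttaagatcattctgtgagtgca
It gave 4.45 and 4.91 in NPCs and -3.37 to 0.18 on the mESC arrays. Single probes are noisy, and this one was picked by its value after the values had been seen. The highest probe of the gene, in an exon, holds 1 CpG dinucleotide (4.63 and 4.78 in NPCs), and another intron probe holds 5 (4.35 and 4.48).

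**Figure D3:**
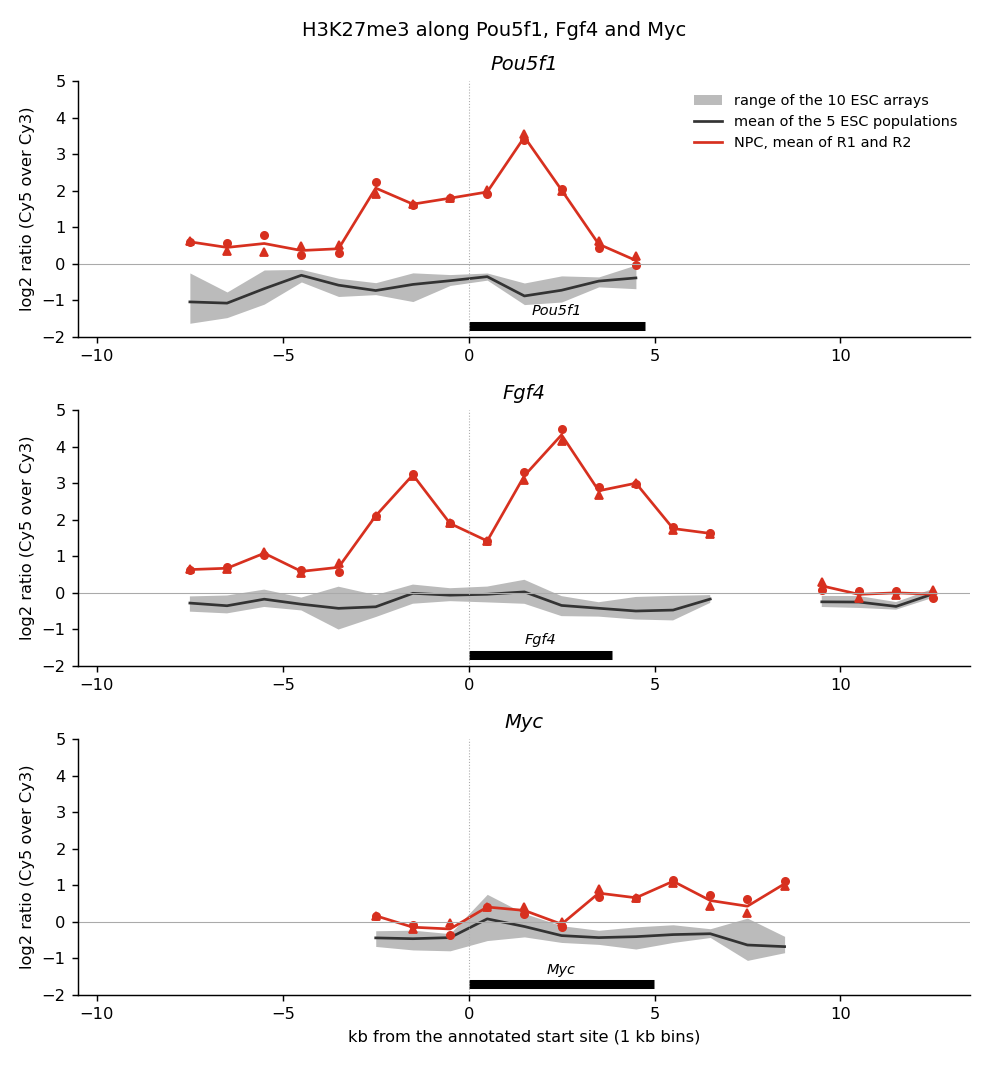
H3K27me3 along the 3 genes in 1 kb bins from the start site (horizontal axis in kb, vertical axis log2 ratio), with the NPC mean as a red line, R1 and R2 as circles and triangles, and the mean and array range of the mESC populations in black and grey. Bins under 3 probes on any array are left out, and black bars mark the genes. The NPC line peaks at 3.47 inside Pou5f1 and 4.32 inside Fgf4, and at Myc it stays close to the mESC range around the start and lies above it past 3 kb.

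The NPC ratio along Fgf4 showed 2 summits with a dip at the CpG-rich start. The NPC ratio was 2.11 between 3 and 2 kb before the start, 3.23 between 2 and 1 kb before it, 1.90 in the last kb before it and 1.42 in the first kb of the gene. It then rose to 3.20 at 1 to 2 kb and to 4.32 at 2 to 3 kb (4.50 on R1 and 4.15 on R2, 13 probes), the highest bin of the 3 genes, where the mESC mean was -0.35. Past it the ratio was 2.79, 3.00, 1.76 and 1.62 in the next 4 bins, to 7 kb after the start and so beyond the end of the gene at 3.86 kb. From 9 to 13 kb, NPC bins had -0.05 to 0.19. In the bin of the dip, probes averaged 67.2% GC and 5.47 CpG dinucleotides, against 46.3% and 0.92 in the bin of the summit, and the part of base composition in this shape was not tested. The NPC Cy5 signal over the array median was 3.08 at 2 to 3 kb, below 4.17 at 1 to 2 kb and 4.21 between 2 and 1 kb before the start. Cy3 at 2 to 3 kb was low, -1.01 in NPCs and -0.65 in mESCs. The highest ratio was thus not the highest Cy5 signal. Both NPC arrays exceeded all 10 mESC arrays in 17 of the 19 bins, again with no share for the whole array beside it.

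The motif in the last exon of Fgf4 fell within the second summit. The 7 probes within 500 bp of it had 3.78 and 3.56 in NPCs and -1.08 to -0.14 on the mESC arrays, so that NPCs were 4.21 above the mESC mean of -0.54 ± 0.24 (SD, n = 5). Among the 18 matches on the array, those at Fgf4 and Pou5f1 held ranks 1 and 2 by the difference of NPCs from mESCs, while the other 16 had a median of 0.01 and a range of -0.45 to 2.18. The genes were chosen on this difference and the motif after the values had been seen, so the order is a description and no support. The other matches are also unlike these in place. Apart from 1 at -2.27 kb, they lie farther from a protein-coding start, from -15.13 kb at the nearest to 294.66 kb.

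The mark extended past the 3′ end of Fgf4. The highest NPC probe outside exons lay 4.29 kb after the start, beyond the gene, and is shown because it too holds no CpG dinucleotide and is rich in A and T (33.3% GC).
Fgf4 downstream, chr7:152051547-152051606: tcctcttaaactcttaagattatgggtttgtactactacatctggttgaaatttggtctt
It gave 5.16 and 5.66 in NPCs and -1.37 to 0.29 on the mESC arrays. The highest Fgf4 probe, in an exon, holds 1 CpG dinucleotide (6.16 and 6.04 in NPCs).

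Runs of high H3K27me3 were defined as 1 kb tiles with a log2 ratio of at least 1 on both arrays, joined across a gap of at most 1 tile, that touched the gene or the 2 kb before it. In NPCs the run over Pou5f1 was 6 kb long, from -2.98 to 3.02 kb relative to the start, and was also 6 kb at a threshold of 0.5 or 1.5. The run over Fgf4 was 11 kb long, from -3.29 to 7.71 kb, and was 17 kb at a threshold of 0.5. None of the 5 mESC populations had a run at either gene, under any of the 11 settings tried. At Myc, NPCs had a run of 3 kb only when the threshold was 0.5, and of 0.5 kb with 500 bp tiles. The mESC populations had a run there in 2 of 55 values over the same settings, at most 1 kb long.

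Myc differed from the mESC populations past its middle. In the 5 bins from 2 kb before to 3 kb after the start, the NPC ratio was -0.20 to 0.40 and overlapped the mESC arrays in 4 of them. From 3 kb on it was 0.78, 0.66 and 1.11 in the bins that end at 4, 5 and 6 kb, with mESC means of -0.43, -0.41 and -0.35, and both NPC arrays lay above all mESC arrays in each bin to the end of the tiling. The last bin, from 8 to 9 kb, had 1.04 against a mESC mean of -0.68. The gene itself ends within the bin from 4 to 5 kb. The 48 probes past its end averaged 0.81 in NPCs and -0.49 ± 0.12 (SD, n = 5) in mESCs, and the 36 probes of the gene past the promoter window 0.40 and -0.40 ± 0.15. Around the start the NPC level thus stayed near that of mESCs, and downstream it did not. The 1 kb on each side of the Myc start holds 112 CpG dinucleotides, with an observed over expected CpG ratio of 0.69. The same window holds 122 CpG dinucleotides at Fgf4 (ratio 0.60) and 44 at Pou5f1 (ratio 0.26), and the median ratio over the 72 tiled promoters was 0.62.

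Counted by probe, both NPC arrays lay above all 10 mESC arrays at 81 of the 113 Pou5f1 probes measured on every array (71.7%), at 144 of 213 Fgf4 probes (67.6%) and at 55 of 127 Myc probes (43.3%). Over all 41408 such probes the share was 17.1%. Within 2 kb of the start, these were 37 of 42 probes at Pou5f1, 39 of 44 at Fgf4 and 4 of 47 at Myc. Both NPC arrays were below all mESC arrays at 3, 2 and 1 probes of the 3 genes (2.65%, 0.94% and 0.79%), and at 3647 of all 41408 probes (8.81%). Nothing is read from these counts, since the genes were chosen on this contrast.

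By 5 kb tile, the fit over the whole array called 259 of 963 tiles, 26.9%, higher in NPCs and 111 lower (limma, Benjamini-Hochberg adjusted p under 0.05). In the deposited ratios, which are not centred on 0 (median -0.232 in NPCs and -0.128 to -0.105 in mESCs), the split was 201 higher and 330 lower. The tile over the Pou5f1 start was 2.76 higher in NPCs, that over the Fgf4 start 2.77 and the next one 2.75, which placed them at ranks 6, 5 and 7 of the 963 differences. At Myc the largest difference, 1.86, was in the tile past the gene, with 1.12 over the 3′ part of the gene and 0.34 over the start. By promoter, 46 of 72 (63.9%) had a higher NPC value than any mESC population, with a median difference from the mESC mean of 0.57, and 8 (11.1%) had a lower one. Pou5f1 held rank 1, Fgf4 rank 3 and Myc rank 44 of 72 in the order of that difference. If the dyes were as labelled, the 46 promoters are those lowest in NPCs, the 8 those highest, and the ranks are 72, 70 and 29.

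Where the 10 kb limit cut through tiled sequence, at Fgf4, the last kb inside it had an NPC ratio of 0.69 before the gene and 0.05 after it, against 0.27 and 0.43 in the first kb outside. The differences from the mESC mean were 0.82 and 0.12 inside and 0.49 and 0.10 outside.

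The neighbours of Fgf4 in its cluster followed another pattern. Fgf3 and Fgf15, which encode other fibroblast growth factors used in embryonic patterning, lie on the same strand and start at -23.3 kb and 35.15 kb from the Fgf4 start. Their promoters were already above the array median in mESCs, with 0.82 ± 0.31 (SD, n = 5) at Fgf3 and 0.75 ± 0.35 at Fgf15, and NPCs had 1.57 and 1.41. The lowest mESC population, tSBE6-Vp64, had 0.49 and 0.31. The median mESC value over the 72 tiled promoters was 0.55. Fgf4 was therefore lowest of the 3 in mESCs and highest in NPCs. In the tile fit, NPCs were higher by 0.58 at Fgf3 (SE 0.17, adjusted p = 0.0242) and by 0.69 at Fgf15 (SE 0.24, adjusted p = 0.0426). These calls were lost with slide as a term in the fit, where the differences were 0.28 (adjusted p = 0.219) and 0.40 (adjusted p = 0.289). Of 19 fits, 15 called Fgf3 and 11 called Fgf15.

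**Figure D4:**
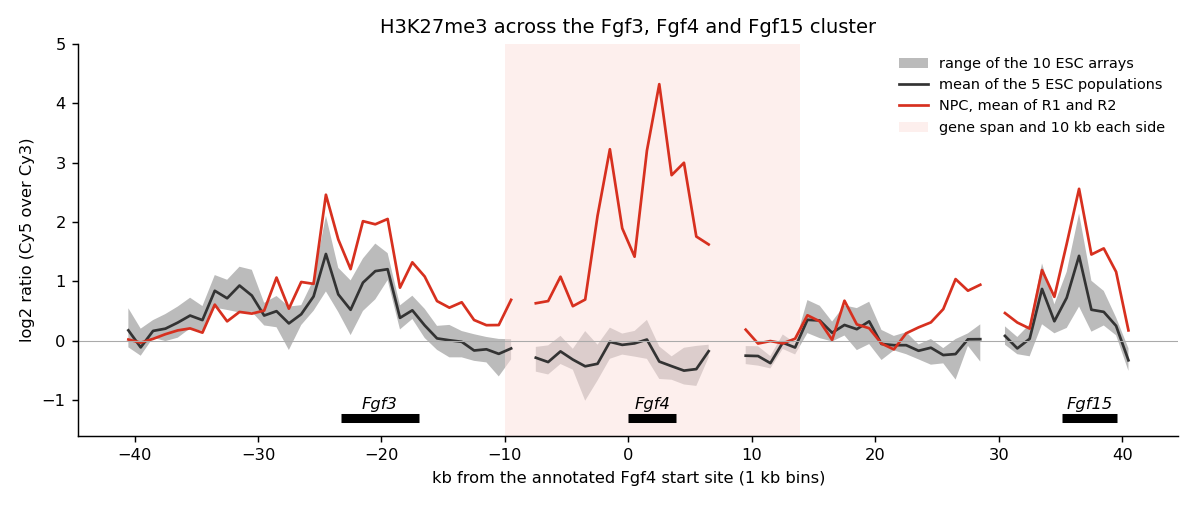
H3K27me3 across the tiled Fgf3, Fgf4 and Fgf15 cluster in 1 kb bins (horizontal axis in kb from the Fgf4 start, vertical axis log2 ratio), NPC mean in red, mESC mean in black and the range of the 10 mESC arrays in grey. The shaded span holds the Fgf4 probes described here. The mESC line rises over Fgf3 and Fgf15 and stays near 0 over Fgf4, where the NPC line reaches 4.32.

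Of 44 other pluripotency and growth factor genes listed for comparison, 6 had a tiled promoter, the 2 neighbours above and Nanog, Sox2, Klf4 and Dppa3. The list and the reference genes below were chosen with earlier results of these data known. Calls and p-values for these genes are therefore a description and no independent test. In the tile that holds the start site, 5 of the 6 were higher in NPCs and none lower in the limma fit, beside 26.9% of all tiles called higher. The median difference was 0.89, against 0.05 over all 963 tiles. It was 0.73 over the start tiles of 10 reference genes from outside the list, of which 5 were also called higher and 2 lower, and 0.57 over the promoter values of all 72 tiled genes. Nanog, which encodes a homeobox factor of the same network as Oct4, had -0.66 ± 0.12 (SD, n = 5) in mESCs and 1.61 in NPCs, 2.27 higher (SE 0.13, limma adjusted p = 8.03e-07). Klf4, a zinc finger factor used with Oct4 in reprogramming, went from 0.17 ± 0.17 to 2.04, 1.87 higher (SE 0.16, adjusted p = 6.45e-06). Sox2, the partner of Oct4 that neural progenitors go on expressing, had 0.01 ± 0.07 in mESCs and 1.11 in NPCs, 1.1 higher (SE 0.11, adjusted p = 2.53e-05). Dppa3, a germ cell and oocyte factor, differed by 0.26 (95% confidence interval -0.15 to 0.66, adjusted p = 0.284). Nanog, Klf4 and Sox2 were called in each of the 19 fits made, but with smaller differences in some. Nanog had 1.21 without dim and saturated probes and 1.49 in the deposited ratios, and Klf4 1.24 in the deposited ratios. Sox2 had 0.60 in 2 kb tiles, 0.61 in the deposited ratios and 0.73 without dim and saturated probes.

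**Figure D5:**
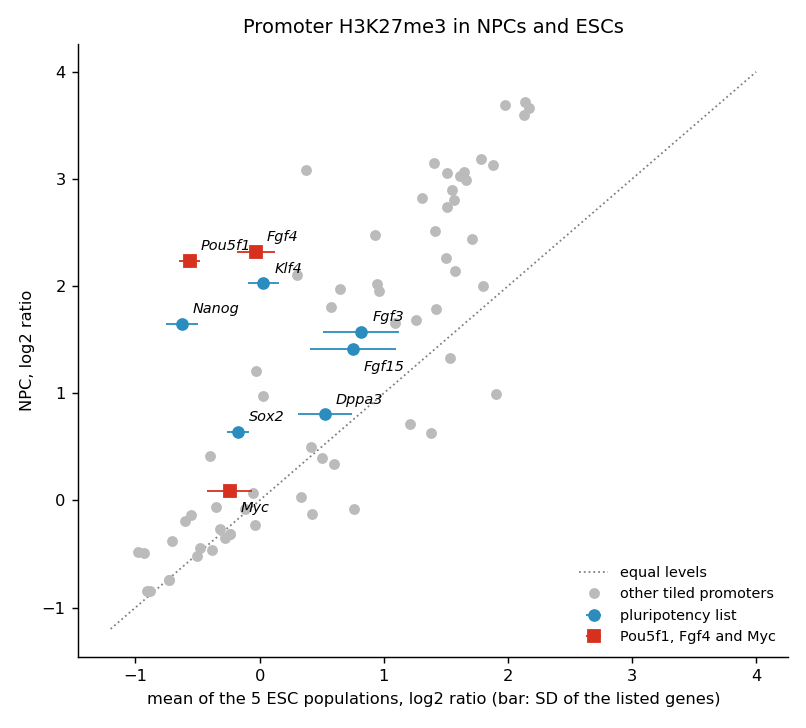
Promoter H3K27me3 (within 2 kb of the start) of the 72 tiled genes in NPCs (vertical axis) and in the mean of the 5 mESC populations (horizontal axis), both as log2 ratio, with the SD over mESC populations as bars for the listed genes. Pou5f1 (-0.56 and 2.24) and Fgf4 (-0.03 and 2.32) sit far above the line of equal levels together with Nanog and Klf4, and Myc (-0.24 and 0.09) near it.

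Other promoters give the scale of these values. Those of Hoxd13, Six3, Shh and Bmp4, developmental genes that polycomb is known to bind, had 2.90, 3.03, 2.81 and 3.08 in NPCs, so that Pou5f1 and Fgf4 at 2.24 and 2.32 were lower than these, and held ranks 22 and 20 of 72 (51 and 53 if the dyes were as labelled). Bmp4 lay between them in its difference, 2.71, from 0.37 ± 0.18 in mESCs to 3.08, whereas Hoxd13, Six3 and Shh were already at 1.55 to 1.61 in mESCs. The broadly expressed genes Actb and Gapdh had -0.45 and -0.52 in NPCs, near the mESC level of Pou5f1. Nes, which encodes the neural progenitor filament nestin, went the other way, from 0.76 ± 0.12 to -0.08, and its tile was 0.90 lower in NPCs (SE 0.14, limma adjusted p = 5.37e-04).

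Across the 6 populations, the promoters most like that of Pou5f1 were Nanog, Klf4 and Klf1, an erythroid factor, with a root mean square difference of 0.26, 0.56 and 0.66 on the log2 scale over 6 values. Those most like Fgf4 were Klf4 (0.14), Gm15217 (0.32) and Klf1 (0.46). For Myc they were Gm10290 (0.16), 1700088E04Rik (0.18) and Polr2f, a subunit of RNA polymerases (0.18), among 69 promoters compared each time.

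Directing Vp64 to Shh or its enhancers was not accompanied by a called change of H3K27me3 at these genes. No limma fit called a tile of theirs. An unadjusted p under 0.05 did occur among their tiles in other fits than the main one below, such as that with slide as a term. In the comparison of the 4 TALE-Vp64 populations with eGFP mESCs, limma called 0 of 963 tiles (0% of the array), with 11 at an unadjusted p under 0.05, and of the 11 tiles of Pou5f1, Fgf4 and Myc none had an unadjusted p that low. The differences ran from -0.30 to 0.12 with a median of -0.08, against -0.03 over all tiles, and their 95% confidence intervals from -0.62 to 0.42, so that changes within these bounds could not be seen with 1 eGFP sample. At the Pou5f1 start tile the difference was -0.08 (interval -0.37 to 0.21) and at the Fgf4 start tile -0.14 (interval -0.47 to 0.19), both with an adjusted p of 0.997.

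The lowest value was at the Myc start, -0.30 (interval -0.62 to 0.01, SE 0.14, adjusted p = 0.997). At the Myc promoter all 4 constructs were below eGFP, with differences of -0.46 for tShh-Vp64, -0.35 for tSBE6-Vp64, -0.25 for tSBE2-Vp64 and -0.15 for tSBE(6+2)-Vp64, each from 1 sample and so with no test. The mean of the 4 was below eGFP at 67 of the 72 tiled promoters, with a median of -0.17. At Pou5f1 the 4 differences were -0.17 to 0.02 and at Fgf4 -0.32 to -0.02. The order of the mESC populations was not the same at the 3 promoters: eGFP was highest at Fgf4 and Myc and second at Pou5f1, and tSBE(6+2)-Vp64 was lowest at Pou5f1 and second at the other two. At Pou5f1, neighbours in that order were no farther apart than R1 and R2 of 1 population (up to 0.12). At Fgf4, the only gap wider than R1 and R2 (up to 0.08) separated tShh-Vp64 and tSBE6-Vp64 from the 3 others. At Myc all 4 gaps, the widest 0.145 between eGFP and the next population, exceeded the R1 to R2 difference in mESCs (up to 0.09). R1 and R2 measure array error within a slide only, so the spread between separate cultures of a population is not known. The tSBE(6+2)-Vp64 arrays were on the slide of the NPCs and the other mESC arrays on the second slide. Its differences and its place in these orders therefore cannot be told apart from the slide.

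The labels of the cells could be looked at only through the mark. Of 7 listed mESC markers, 5 were tiled, of which Pou5f1 and Fgf4 were chosen on this contrast and check nothing. The other 3, Nanog, Sox2 and Klf4, had a higher promoter value in NPCs than in any mESC population, as did 63.9% of all tiled promoters. Of 5 neural progenitor markers, 4 were tiled, with Nes and Sox9 lower in NPCs and Pax6 and Six3 higher. Of 9 markers of other cells, only Foxa2 was tiled, with 1.41 ± 0.23 in mESCs and 3.15 in NPCs. The part of other cell types in these values was not tested.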

How the data were processed

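H3K27me3 ChIP and input DNA of 6 populations were measured on 12 arrays. The authors scanned both dyes and deposited spot intensity values from Agilent Feature Extraction 11.5.1.1, and a table of normalized log2 ratios with R1 and R2 combined, whose normalization is not given in the sources used here. The study's paper describes other arrays. Processed signals were used, with control and outlier-flagged spots left out (0 to 37 of the 521 member probes per array). The log2 ratio of Cy5 to Cy3 was centred on the median over probes, with no loess step. Arrays were averaged to 1 sample. Tiles of 5 kb with at least 5 probes were fitted with limma 3.58.1 (963 tiles), tested on simulated data first. Lone samples are assumed to vary like the others. Genes came from GENCODE for mm9. The number of arrays limits the precision. Members and gene lists were chosen with earlier results of these data known, and the paired motif after the values had been seen. Genes named are the members, the listed genes with at least 5 promoter probes, and the 3 promoters most like each member, over 20 kb away. Same-numbered arrays were not paired: deviations of R1 correlated at -0.25 to 0.43 between populations.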

Additional observations from a re-analysis of the deposited data

How the results depend on the processing

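The direction of the NPC difference from the mESC mean at the 3 promoters held under every alternative run. At Myc, NPCs fell below eGFP mESCs alone in some of them, as given above. At Pou5f1 (2.80) it was 2.20 with loess and scale, 2.45 with MAD rescaling, 2.56 with normexp, 2.02 in the deposited ratios, 2.30 without dim and saturated probes, 2.29 and 1.97 with 1 and 5 kb windows, 2.66 as a median and 2.92 against tSBE(6+2)-Vp64 only, and 2.77 to 2.82 when 1 array number or mESC population was left out. At Fgf4 (2.35) these were 1.76 with loess, 1.96 with MAD, 1.70 deposited, 1.72 and 2.62 with 1 and 5 kb, and 2.30 to 2.38 with 1 left out. At Myc (0.33) they were 0.14 deposited, 0.53 with 5 kb and 0.28 to 0.39 with 1 left out. The NPC run over Pou5f1 was 5.5 kb in 500 bp tiles and 4 kb deposited. That over Fgf4 was 17 kb at a threshold of 0.5, 10.5 and 12 kb in 500 bp and 2 kb tiles, 10 kb with loess and 8 kb deposited. That over Myc was 3 kb at 0.5 and 0.5 kb in 500 bp tiles. The cause of these shifts was not tested.

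Levels in mESCs near 0 changed sign. At Fgf4, eGFP had -0.016 with loess, -0.23 deposited and -0.13 with 5 kb, tSBE2-Vp64 -0.078, -0.23 and -0.23, and -0.0089 with 1 kb, and tSBE(6+2)-Vp64 -0.0443, -0.25 and -0.20. At Myc, NPCs had -0.20 deposited and -0.011 without dim probes.

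Tiles called between NPCs and mESCs (370) numbered 675 of 2258 in 2 kb tiles, 215 of 505 in 10 kb tiles, 558 with arrays as samples and no replicate block, 539 with the replicate block, and 304 to 368 with 1 left out. TALE-Vp64 against eGFP gave 0 to 1 with 1 left out and 0 otherwise. The replicate block changed no call at the members of that comparison.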
